A study of Rattus norvegicus with 119 samples.

Results

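The genes described here encode the proteins of the cytosolic ribosome. They were taken as every probe set of the array that the platform annotation pairs with exactly 1 gene symbol, where that symbol has the form of a large-subunit (Rpl), small-subunit (Rps), stalk (Rplp0, Rplp1, Rplp2) or Rpsa gene. This rule used names only and no measured value, and it found 258 of 29214 probe sets, for 71 symbols. There were 164 probe sets for 41 large-subunit symbols, 87 for 27 small-subunit symbols and 7 for the 3 stalk symbols. For 54 symbols there was more than 1 probe set, up to 21 for Rpl21. Of the 258, 14 carried values identical to those of another member, and 255 lay above the 40th percentile of mean level over all probe sets. Ribosomal protein genes have many processed copies of near-identical sequence, so a probe set can also read copies, and probe sets of 1 symbol are repeat readings of the same animals and not replicates.

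Hippocampal RNA was hybridised with 1 array per animal, for 40 Fischer, 40 Long Evans and 39 Sprague Dawley rats. In each strain, males and females were controls or received lead acetate in the chow at 250 or 750 ppm, either perinatally (to the dams from 10 days before breeding until weaning, with control chow for the pups afterwards) or postnatally (from birth to postnatal day 45, with control chow afterwards), and all tissue was taken at postnatal day 55. The 30 groups held 4 animals each, apart from the 3 male Sprague Dawley controls. Because the labels name no litters, some animals may share a dam, and p-values measure only the spread between these animals. Sample titles number the animals of each group, and within every group the animals with the lower title numbers were compared with those with the upper title numbers. The labels do not say what the numbers stand for.

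Values are log2 expression levels, on which a difference of 1 is a 2-fold change. They ran from 2.29 to 14.18, array medians lay between 7.36 and 7.57, and the lowest correlation between any 2 arrays was 0.979. X-linked genes went against the sex label on 8 arrays, none of them Fischer. The hippocampal markers Neurod6, Wfs1, Zbtb20 and Prox1 lay at the 97.5th, 97.4th, 96.3rd and 86.2nd percentiles of mean level, and the neuronal gene Snap25 at the 99.7th. Ttr, the choroid plexus transthyretin gene, ranged from 8.02 to 13.77 between animals. In bulk tissue, fewer cells of a type and less RNA per cell cannot be told apart.

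A cytosolic ribosome has a small subunit that decodes the messenger RNA and a large subunit that forms the peptide bond. The stalk, built from Rplp0 with Rplp1 and Rplp2, recruits the translation factors. The messages of these genes typically begin in a run of C and T bases, the 5′ terminal oligopyrimidine tract, through which mTOR signalling controls how well they are translated. In neurons, ribosomal protein messages are found in dendrites and axons as well as in the cell body.

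RefSeq promoters of the GRCr8 build, each from 250 bases before to 50 bases after the start of the gene, were found for 60 of the 71 symbols. The stretch around the start is shown for 4 genes on which the results below turn: 2 that were higher and 2 that were lower in Fischer rats with upper title numbers. Each covers 60 bases before the start and 28 from the start on, 5′ to 3′ on the strand of the gene. Capitals mark the longest run of C and T bases that overlaps the 20 bases on either side of the start. In Rpl36a it begins 14 bases after the start and runs on beyond that window. The positions are chr1:205975861-205975948 (plus strand) for Rplp2, chr10:100200375-100200462 (plus strand) for Rpl38, chrX:102059389-102059476 (plus strand) for Rpl36a and chr2:23814457-23814544 (plus strand) for Rps23.
Rplp2: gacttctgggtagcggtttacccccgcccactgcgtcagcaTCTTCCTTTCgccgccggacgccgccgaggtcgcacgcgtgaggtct
Rpl38: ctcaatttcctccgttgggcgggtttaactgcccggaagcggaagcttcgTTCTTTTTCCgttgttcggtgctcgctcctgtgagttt
Rpl36a: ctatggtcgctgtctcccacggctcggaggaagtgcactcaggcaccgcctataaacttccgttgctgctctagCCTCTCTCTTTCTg
Rps23: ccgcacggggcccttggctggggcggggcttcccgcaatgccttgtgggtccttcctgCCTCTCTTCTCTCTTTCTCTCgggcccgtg

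The runs were 10 bases in Rplp2 and Rpl38, 13 in Rpl36a and 21 in Rps23. A run of at least 8 C or T bases that overlaps the 20 bases on either side of the start was present in 50 of the 60 member promoters (83.3%), against 21% of all 33469 promoters in the table. Here and for the sequences below, the first promoter listed was used for each member symbol. The comparison counts every promoter listed, members included. Searched on both strands, CTTCCG, the core of ETS-family sites, was in 55% of member promoters and 16.6% of all. CTTTC, which can overlap the run, was in 81.7% and 57.5%. AAGATGGC, the core of YY1 sites, was in 8.33% and 3.17%, and TATAAA in 11.7% and 14.2%. Such matches describe the letters in these windows and not sites in use.

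In Fischer rats the largest differences among ribosomal protein genes ran between the lower and the upper title numbers. Rplp2 was 0.97 higher with the upper numbers (log2 difference, SE 0.023, 20 against 20 animals, adjusted p = 9.2e-27) and Rpl38, a large-subunit protein, 0.92 higher (SE 0.020, adjusted p = 8.5e-28). Adjusted p-values throughout are from limma's moderated test, with the Benjamini-Hochberg adjustment over all 29214 probe sets, and a probe set is said to be higher or lower, or to have risen or fallen, where that value is under 0.05. Of the 258 member probe sets, 194 passed (75.2%), against 60.9% of all probe sets. Of these, 149 were higher (against 18.6% of all probe sets) and 45 were lower (against 42.3%), and the median difference was 0.12 over the members and -0.07 over all probe sets.

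The stalk gene Rplp2 ran from 11.12 to 11.44 (median 11.34) in the 20 Fischer rats with lower numbers and from 12.20 to 12.34 (median 12.24) in the 20 with upper numbers. Rpl38 ran from 10.66 to 10.89 (median 10.75) and from 11.56 to 11.76 (median 11.66). For both genes every animal with an upper number lay above every animal with a lower number. All 3 probe sets of Rplp2 (0.90 to 0.97) and all 4 of Rpl38 (0.88 to 0.92) gave nearly the same difference.

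**Figure D1:**
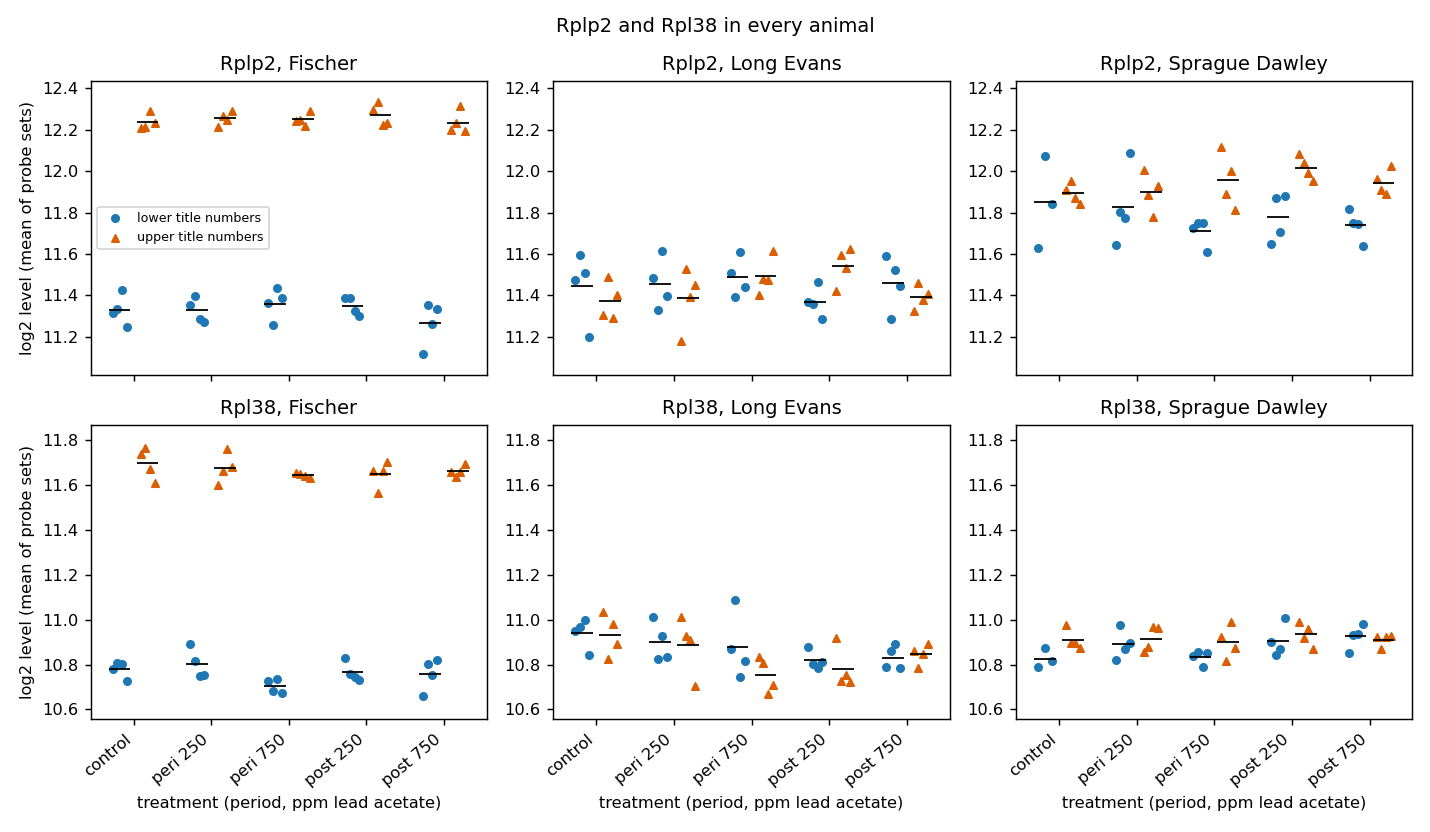
Level of Rplp2 and Rpl38 (log2, mean over the probe sets of the gene) in each animal by strain, with animals of lower and of upper title numbers as separate points. In Fischer rats the 2 sets do not overlap (11.12 to 11.44 against 12.20 to 12.34 for Rplp2), and in Long Evans and Sprague Dawley rats they do.

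The difference was present at every treatment. Over the 10 groups of sex and treatment in Fischer rats, Rplp2 was higher in the animals with upper numbers in 10 of 10, by 0.85 to 0.99, and Rpl38 in 10 of 10, by 0.78 to 0.97. Mean levels of Rplp2 in the 5 treatments were 11.27 to 11.36 with lower numbers and 12.24 to 12.27 with upper numbers, so the treatments differed by far less than the title numbers did.

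The other stalk genes gave smaller or opposite values. Rplp0, which anchors the stalk to the ribosome, was lower with upper numbers at both of its probe sets (-0.26 and -0.06), with a median of 10.33 against 10.48. Rplp1, the partner of Rplp2, differed by 0.05 to 0.08, and 1 of its 2 probe sets passed.

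Among large-subunit genes in Fischer rats, 97 of 164 probe sets rose with upper numbers and 23 fell, with a median difference of 0.14. Rpl10, which joins the large subunit late in its assembly, had a median of 10.44 (10.23 to 10.56) with lower numbers and 11.16 (10.98 to 11.30) with upper numbers. Its most changed probe set differed by 0.78 (SE 0.030, adjusted p = 2.1e-20). The 2 sets of animals did not overlap for Rpl10. All 21 probe sets of Rpl21 rose (0.22 to 0.38), as did all 7 of Rpl29 (0.26 to 0.57), all 7 of Rpl39 (0.34 to 0.40), all 9 of Rpl9 (0.12 to 0.28) and all 9 of Rpl35a (0.10 to 0.37). Rpl22l1, a divergent copy of Rpl22, was 0.41 higher.

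A smaller set of large-subunit genes was lower in the same animals. The lowest were probe sets of Rpl36a (-0.51, SE 0.095, adjusted p = 2.1e-05), Rpl31 (-0.39, SE 0.032, adjusted p = 3.2e-12), Rpl13 (-0.35, SE 0.052, adjusted p = 7.6e-07) and Rpl5 (-0.34, SE 0.033, adjusted p = 1.4e-10), the last a carrier of 5S ribosomal RNA. Both Rpl36a probe sets fell, and 1 of 3 did for Rpl5. Rpl31 and Rpl13 held probe sets of both directions: those of Rpl13 ran from -0.35 to 0.25, with 6 higher and 1 lower. For Rpl31 and Rpl13 the direction therefore belongs to a probe set and not to the gene. Rpl36 had 9 of 10 probe sets lower, by small amounts (-0.13 to -0.04 over all 10).

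Among small-subunit genes in Fischer rats, 48 of 87 probe sets rose and 20 fell, with a median difference of 0.09. Rps3, at the entry of the messenger RNA channel, had a median of 9.02 (8.68 to 9.31) with lower numbers and 9.64 (9.33 to 9.97) with upper numbers, without overlap, and its most changed probe set differed by 0.78 (SE 0.097, adjusted p = 2.1e-08). Rps20 had a median of 11.44 (11.30 to 11.60) with lower numbers and 11.99 (11.87 to 12.13) with upper numbers. Its 8 probe sets differed by 0.52 to 0.59, the most changed by 0.59 (SE 0.023, adjusted p = 1.7e-20). All probe sets of Rps15a (0.39 to 0.51), Rps7 (0.41 to 0.48) and Rps9 (0.35 to 0.54) rose as well. Rps4x, the X-linked form of Rps4, was higher by 0.09 and 0.17 at its 2 probe sets, and Rps4y2 differed by 0.08 (adjusted p = 0.085), which did not pass.

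Rps23, a protein of the decoding centre, went the other way, with a median of 10.88 (10.80 to 11.01) with lower numbers and 10.61 (10.51 to 10.76) with upper numbers. These 2 sets of animals did not overlap. Its most changed probe set fell by 0.30 (SE 0.023, adjusted p = 4.6e-13). Rps12 had a median of 9.16 (9.04 to 9.40) with lower numbers and 8.94 (8.76 to 9.06) with upper numbers, so these sets overlapped slightly, and all 4 of its probe sets fell. In each of the 10 groups of sex and treatment both genes were lower in the animals with upper numbers.

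Counted by gene, every probe set was higher in 34 of the 71 symbols and every probe set was lower in 9 (Rpl13a, Rpl24, Rpl36a, Rplp0, Rps12, Rps15, Rps16, Rps18 and Rps23). In 10 symbols some were higher and none lower, in 7 some were lower and none higher, in 4 both occurred, and in 7 none passed. Of the 71 symbols, 17 had only 1 probe set, and no such count by gene was made over the whole array. Among the 54 symbols with more than 1 probe set, the range of the difference within a symbol had a median of 0.074 and was under 0.1 in 32, with a largest value of 0.60, while the standard deviation of the difference between symbols was 0.264. The ranges of the lower and upper title numbers did not overlap for 42 member probe sets of 14 symbols that were higher with upper numbers (2.22% of all probe sets) and 3 that were lower, all of Rps23 (2.73% of all). No member had ranges without overlap in Long Evans or Sprague Dawley rats. The share of all probe sets without overlap in those strains is not given here, so this absence does not set the members apart.

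**Figure D2:**
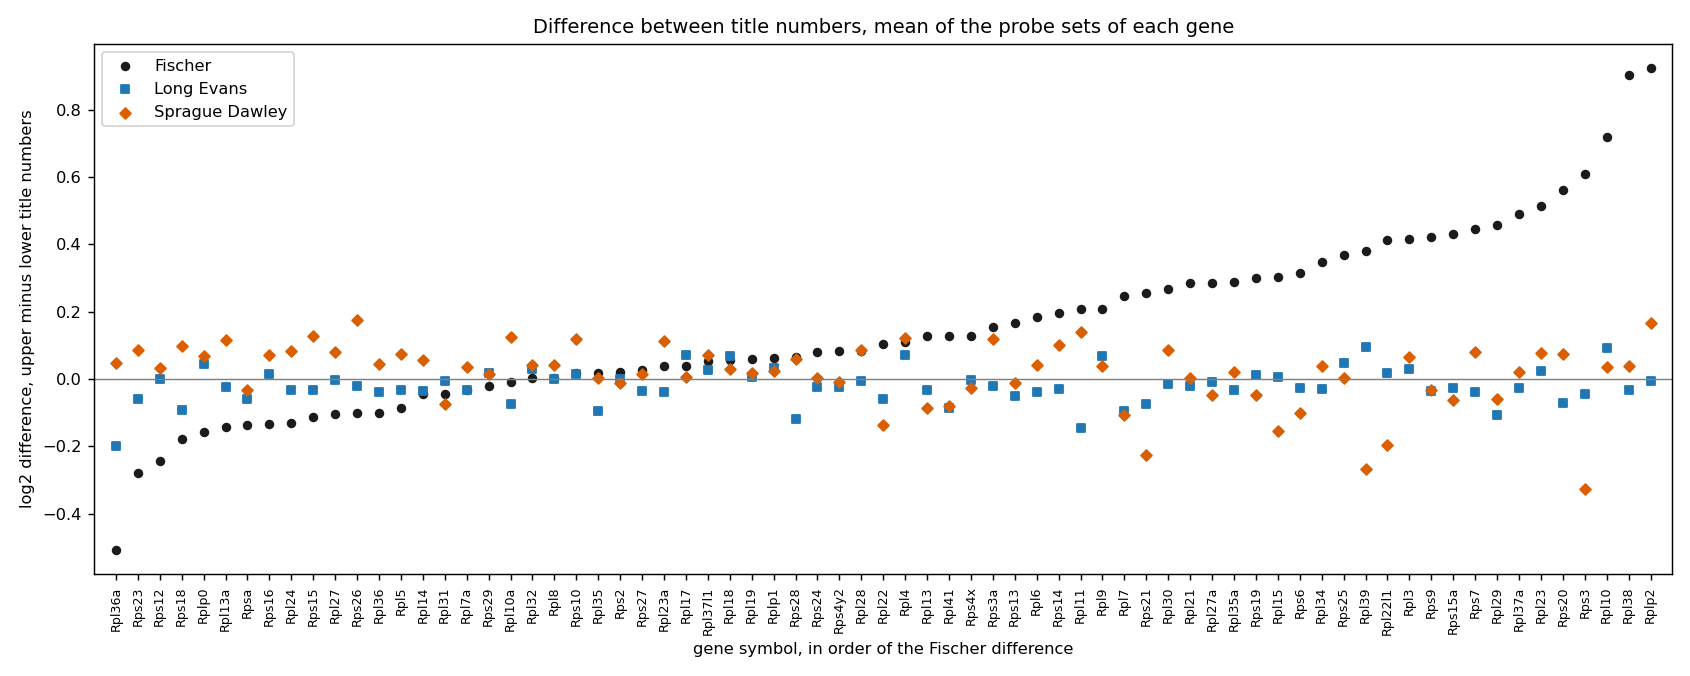
Difference between upper and lower title numbers (log2, mean over the probe sets of each symbol) for the 71 ribosomal protein symbols in each strain. In Fischer rats the symbols spread from Rpl36a at the low end to Rplp2 and Rpl38 at the high end (0.97 and 0.92 at their most changed probe sets), and the spread in Long Evans and Sprague Dawley rats is narrower.

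The balance between higher and lower members in Fischer rats depended on the scaling of the arrays. With each array centred on its median, which moved the median of all probe sets by 0.089, 199 members were higher and 17 lower, with a median of 0.21. With a further quantile normalization, which moved it by 0.063, 139 were higher and 54 lower. Of all probe sets, 53.2% passed in either direction when centred and 53.1% after quantile normalization, against 60.9% as deposited. The median over all probe sets was then 0.02 and -0.004. The shares of all probe sets that were higher and that were lower are not given for centring or quantile normalization. The member counts by direction under these scalings therefore do not by themselves set the members apart from other genes. Every probe set was higher under all 3 scalings in 32 symbols, among them Rplp2, Rpl38, Rpl10, Rps3 and Rps20. Every probe set was lower under all 3 in Rpl36a, Rps12 and Rps23 only, and no symbol turned from all higher to all lower.

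The C and T run near the start was found in genes of either direction. It was present in 23 of 29 symbols with a promoter whose probe sets were all higher in Fischer rats (median longest run 10) and in 7 of 9 whose probe sets were all lower (median 12).

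In Sprague Dawley rats 103 members passed the same comparison (39.9%), against 18.9% of all probe sets. There were 70 higher with upper numbers (10.2% of all probe sets) and 33 lower (8.71% of all), with a median of 0.03 against 0.01 over all probe sets. The differences were smaller than in Fischer rats. Large-subunit probe sets were higher in 33 and lower in 21, small-subunit probe sets higher in 33 and lower in 12, and of the 7 stalk probe sets 4 were higher and 0 lower (limma, 4 at an unadjusted p under 0.05). Every probe set was higher in 14 symbols and lower in 8 (Rpl15, Rpl22, Rpl22l1, Rpl39, Rpl7, Rps21, Rps3 and Rps6). In males only, 33 members passed (12.8%, against 6.15% of all probe sets), and in females only, 32 (12.4%, against 4.33%).

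The highest Sprague Dawley value was at a probe set of Rpl4 (0.20, SE 0.041, adjusted p = 0.00075) that is 1 of the 3 members not above the 40th percentile, with a mean level of 6.03. The other Rpl4 probe set, at 11.70, differed by 0.05 and did not pass. The next highest were at probe sets of Rps26 (0.19, SE 0.033, adjusted p = 9.8e-05), Rplp2 (0.18, SE 0.041, adjusted p = 0.0017), Rpl5 (0.17, SE 0.030, adjusted p = 0.0001) and Rpl24 (0.17, SE 0.033, adjusted p = 0.00035). Every probe set of Rps26 and Rplp2 was higher, but only some of those of Rpl5 and Rpl24. Averaged over their probe sets, Rpl5 differed by 0.07 and Rpl24 by 0.08. The levels of Rplp2 ran from 11.61 to 12.09 with lower and from 11.78 to 12.12 with upper numbers, so the 2 sets of animals overlapped almost throughout. Rpl38 differed by 0.01 to 0.06 over its 4 probe sets, of which 1 passed (adjusted p = 0.030).

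The lowest Sprague Dawley values were at probe sets of Rps3 (-0.56, SE 0.085, adjusted p = 2.2e-05), Rpl13 (-0.32, SE 0.046, adjusted p = 1.4e-05), Rps21 (-0.31, SE 0.048, adjusted p = 2.4e-05), Rpl39 (-0.28, SE 0.045, adjusted p = 4.1e-05) and Rpl22l1 (-0.20, SE 0.064, adjusted p = 0.029). Averaged over the probe sets of each gene, the values were -0.33 for Rps3, -0.23 for Rps21 and -0.27 for Rpl39, and all their probe sets were lower. For Rpl13 only some probe sets were lower, and the average was -0.08. Rps3 had a median of 9.70 (9.34 to 9.94) with lower numbers and 9.36 (9.04 to 9.68) with upper numbers. It was higher with upper numbers in 10 of 10 groups in Fischer rats and in 0 of 10 in Sprague Dawley rats. Rpl39 and Rps21 were likewise higher with upper numbers in 10 of 10 Fischer groups and in 0 of 10 Sprague Dawley groups. Of the 79 members that passed in both strains (40.7% of the Fischer and 76.7% of the Sprague Dawley members that passed), 32 had the same sign and 47 the opposite sign (59.5%). Over all probe sets that passed in both, 81.8% had opposite signs.

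In Long Evans rats 0 of 258 members passed (limma, 53 at an unadjusted p under 0.05, or 20.5%, against 9.56% of all probe sets at that threshold), against 0.0993% of all probe sets that passed with adjustment, and the smallest adjusted p of a member was 0.062. Rplp2 had a median of 11.46 (11.20 to 11.61) with lower and 11.43 (11.18 to 11.63) with upper numbers. Rpl38 had a median of 10.85 (10.74 to 11.09) and 10.84 (10.67 to 11.03). With each gene taken at its most extreme probe set, the values farthest from 0 were those of Rpl4 (0.16, adjusted p = 0.35, at the probe set with a mean level of 6.03, against -0.01 at the other), Rpl10 (0.14, adjusted p = 0.18), Rpl39 (0.11, adjusted p = 0.33), Rpl9 (0.10, adjusted p = 0.41) and Rpl37l1 (0.08, adjusted p = 0.42) on the high side. On the low side they were Rpl36a (-0.20, adjusted p = 0.67), Rpl11 (-0.15, adjusted p = 0.083), Rps3 (-0.13, adjusted p = 0.25), Rps28 (-0.12, adjusted p = 0.11) and Rpl29 (-0.11, adjusted p = 0.36).

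The strains were set against each other directly in 1 fit of all arrays. Between Long Evans and Fischer rats the title-number difference itself differed for 161 members (against 43.3% of all probe sets), being higher in Long Evans for 20 (28.7% of all) and lower for 141 (14.6% of all). Between Sprague Dawley and Fischer rats it differed for 184 (against 55.3% of all), higher in Sprague Dawley for 54 (37.5% of all) and lower for 130 (17.8% of all). Between Sprague Dawley and Long Evans rats it differed for 76 (against 10.5% of all), higher in Sprague Dawley for 60 (5.31% of all) and lower for 16 (5.17% of all). The largest gaps at single probe sets were those of Rps3 between Sprague Dawley and Fischer rats (-1.34, SE 0.126, adjusted p = 4.6e-16) and of Rplp2 (-0.96, SE 0.050, adjusted p = 2.1e-30) and Rpl38 (-0.95, SE 0.032, adjusted p = 2.1e-44) between Long Evans and Fischer rats. That Rps3 probe set had a mean level of 7.75, and the other Rps3 probe set had 10.87. Averaged over both, the title-number difference of Rps3 was 0.61 in Fischer and -0.33 in Sprague Dawley rats. In the positive direction, the largest Long Evans minus Fischer values were at 1 probe set each of Rpl31 (0.33, adjusted p = 1.6e-10), Rpl13 (0.32, adjusted p = 0.001) and Rplp0 (0.29, adjusted p = 1.5e-08). Both Rplp0 probe sets passed, but that of Rpl31 was the only 1 of 7 to do so, and the other 6 of Rpl13 passed as lower. The largest Sprague Dawley minus Fischer values were at 1 probe set each of Rpl36a (0.56, adjusted p = 0.0033), Rpl31 (0.53, adjusted p = 1.6e-19) and Rpl5 (0.51, adjusted p = 5.7e-14). Both Rpl36a probe sets passed, while 1 of 3 did for Rpl5, and for Rpl31 1 of 7 passed as higher and 3 as lower. Between Sprague Dawley and Long Evans rats the largest values were at probe sets of Rpl11 (0.29, adjusted p = 1.7e-05), Rpl5 (0.23, 1 of 3 passing) and Rps26 (0.22, 6 of 6). The lowest were at probe sets of Rps3 (-0.59, 1 of 2), Rpl39 (-0.38, 7 of 7) and Rpl13 (-0.29, 1 of 7). That last count depended on the animals used: 29.5% of members passed with all animals, 5.43% without the first animal of every group, 46.1% without the second and 19.4% without the third.

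Rpl36a, an X-linked large-subunit gene with 2 probe sets, varied more between animals of 1 group than any other member symbol in each strain. Its standard deviation within groups and title numbers was 0.33 in Fischer, 0.49 in Long Evans and 0.36 in Sprague Dawley rats. In Fischer rats with lower numbers, 13 animals lay between 10.85 and 11.34 and 7 between 11.78 and 12.25, with none in the gap of 0.44. All 20 Fischer rats with upper numbers lay between 10.80 and 11.10. Among Long Evans rats with lower numbers, 8 lay between 10.79 and 11.29 and 12 between 11.79 and 12.27. With upper numbers, 17 lay between 11.15 and 11.68 and 3 between 11.99 and 12.21. Among Sprague Dawley rats, 17 with lower numbers lay between 11.11 and 11.61 and 2 between 12.07 and 12.25, and those with upper numbers ran from 10.96 to 12.13. In Fischer rats the 7 high animals among the lower numbers thus had no counterpart among the upper numbers, while the other 13 overlapped with them.

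**Figure D3:**
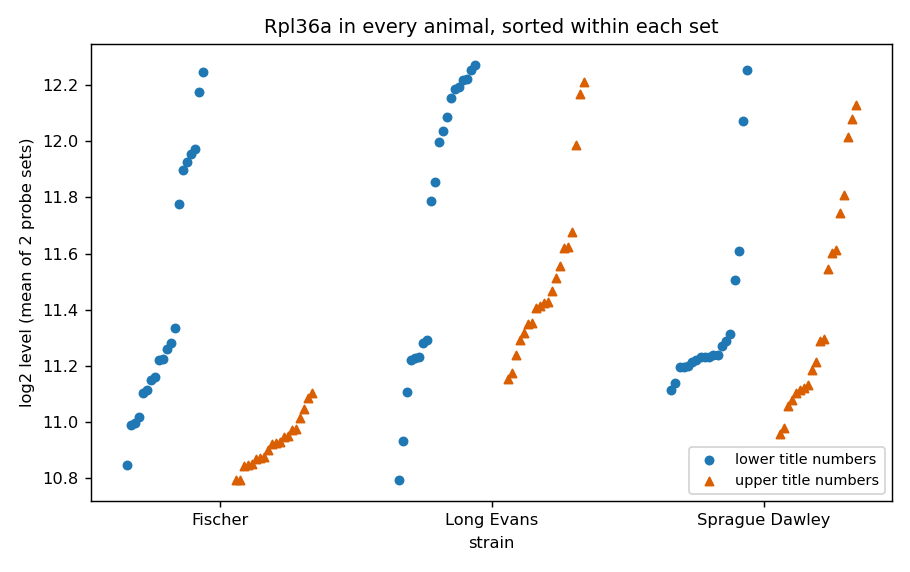
Level of Rpl36a (log2, mean of 2 probe sets) in each animal, sorted within strain and title numbers. Fischer rats with lower numbers fall into 13 below 11.34 and 7 above 11.78, and those with upper numbers all lie between 10.80 and 11.10.

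In control animals, more ribosomal probe sets were higher than lower in Sprague Dawley against Long Evans rats. Of 258 members 131 passed, against 31.2% of all probe sets, with 109 higher in Sprague Dawley rats (15.8% of all) and 22 lower (15.4% of all) and a median difference of 0.10 against 0.02 over all. Among animals with lower numbers only, 80 passed (20% of all probe sets), and with upper numbers only, 78 (14.6% of all). In both, 43 passed in the same direction, 40 of them higher, and 0 in opposite directions (72 passed in only 1 of them). Over all probe sets, 7.73% passed in both in the same direction and 0.0103% in opposite directions.

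Rpl11, the large-subunit protein that with Rpl5 binds Mdm2 when ribosome assembly fails, ran from 11.02 to 11.32 (median 11.15) in 8 Long Evans controls and from 11.76 to 11.95 (median 11.80) in 7 Sprague Dawley controls, without overlap. The fitted difference was 0.66 (SE 0.057, adjusted p = 5e-17), with 0.59 among lower and 0.75 among upper numbers. Rps20 ran from 11.37 to 11.65 in Long Evans controls, and every Sprague Dawley control lay above them (median 12.14, highest 12.24), a difference of 0.62 (SE 0.039, adjusted p = 4.6e-24). Rplp2 was 0.47 higher (SE 0.058, adjusted p = 2.6e-10) and Rpl10 0.42 higher (SE 0.050, adjusted p = 3.8e-11) in Sprague Dawley rats, and these probe sets passed within either set of numbers.

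The members lower in Sprague Dawley than in Long Evans controls were led by Rps24 (-0.39, SE 0.067, adjusted p = 2e-06), with 8.68 to 8.87 against 8.95 to 9.35 and no overlap. Rps10 differed by -0.24 (SE 0.042, adjusted p = 1.9e-06) and also passed in both sets of numbers. Rpl10a (-0.25) was -0.41 among lower and -0.10 among upper numbers, where it did not pass (adjusted p = 0.30). Rpl31 (-0.20) was -0.13 among lower (adjusted p = 0.15) and -0.28 among upper numbers.

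Against Fischer controls, the strain differences changed with the title numbers. Between Long Evans and Fischer rats 136 members passed, against 32.1% of all probe sets, with 14 higher in Long Evans (15% of all) and 122 lower (17.1% of all). Among lower numbers 24 passed (12.5% of all) and among upper numbers 145 (28.6% of all). In both, 10 passed in the same direction (6.17% of all) and 4 in opposite directions (0.353% of all). Rplp2 was -0.40 (SE 0.056, adjusted p = 9.5e-09) over both sets, 0.11 among lower (adjusted p = 0.50) and -0.91 among upper numbers. At its 4 probe sets, Rpl38 ran from 0.14 to 0.18 among lower and from -0.79 to -0.75 among upper numbers. All 4 probe sets of Rpl38 thus changed sign between the 2 sets of animals, while Rplp2 passed only among the upper numbers.

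Some Long Evans differences from Fischer rats had the same sign in both sets. Rpl3, at the peptide-bond-forming centre, was -0.41 (SE 0.051, adjusted p = 3.7e-10), with -0.26 among lower and -0.55 among upper numbers. The Rpl4 probe set with a mean level of 6.03 was -0.35 (adjusted p = 0.00023), with -0.41 and -0.29, and the other, at 11.70, was -0.11. Rpl10 was -0.36, with -0.16 (adjusted p = 0.16) and -0.57. The highest of the 7 probe sets of Rpl31 was 0.30 (SE 0.047, adjusted p = 1.5e-07), with 0.21 and 0.39, and 2 of the 7 passed, the lowest being 0.03. Rpl32 was 0.23, with 0.21 and 0.26, and all 3 of its probe sets passed. The highest of 10 probe sets of Rpl36, of which 5 passed, was 0.15, with 0.07 (adjusted p = 0.73) and 0.23. Rpsa, the laminin receptor homologue of the small subunit, was 0.28 over both sets at the 1 of its 2 probe sets that passed, with 0.19 among lower (adjusted p = 0.16) and 0.38 among upper numbers.

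Between Sprague Dawley and Fischer controls 59 members passed, against 16% of all probe sets, with 34 higher in Sprague Dawley (6.65% of all) and 25 lower (9.37% of all). Within the lower numbers 77 passed (13.6% of all) and within the upper numbers 77 (18.7% of all). In both, 8 passed in the same direction (2.2% of all) and 6 in opposite directions (2.26% of all). Rpl11 was 0.51 higher in Sprague Dawley rats (SE 0.057, adjusted p = 9.3e-12), with 0.63 and 0.41 in the 2 sets, and Rps20 0.40 higher (SE 0.038, adjusted p = 1.6e-14), with 0.68 and 0.14. Rpl32 was 0.28 higher, with 0.24 and 0.33, and Rpsa 0.38 higher, with 0.24 (adjusted p = 0.11) and 0.55. Rps24 (-0.37), Rps10 (-0.25, with 4 of 6 probe sets lower) and Rpl23 (-0.35) were lower, the last with -0.11 among lower numbers (adjusted p = 0.59) and -0.61 among upper numbers. Rpl38 was -0.38 over both sets but 0.05 among lower numbers (adjusted p = 0.60) and -0.82 among upper numbers. Rplp2 did not pass over both sets (0.07), while it was 0.53 among lower (adjusted p = 0.00079) and -0.37 among upper numbers (adjusted p = 0.00013).

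**Figure D4:**
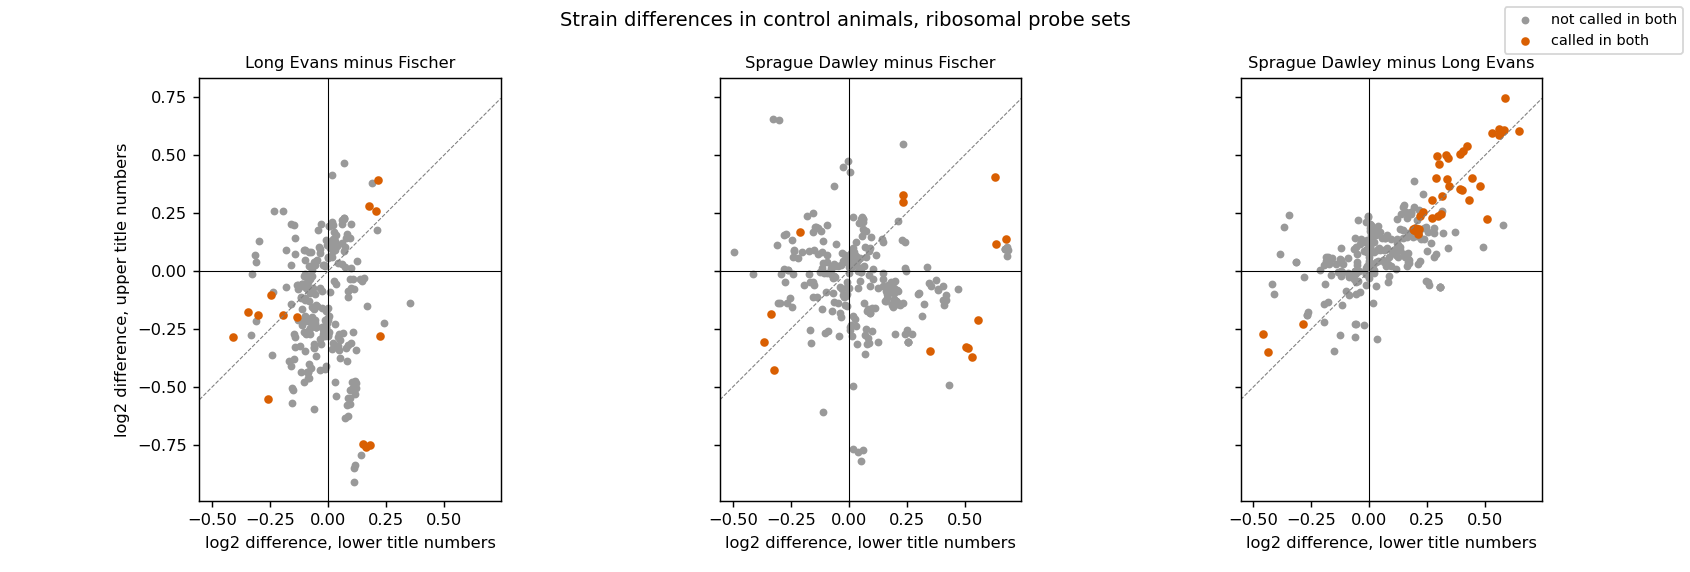
Strain differences in control animals for the 258 member probe sets, among animals with lower title numbers (horizontal axis, log2) and with upper title numbers (vertical axis, log2). Coloured points passed in both, and the dashed line marks equal values. Between Sprague Dawley and Long Evans rats all 43 coloured points have the same direction, while between Long Evans and Fischer rats 4 of 14 have opposite directions.

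No lead contrast passed for any ribosomal protein gene. For the mean of the exposed groups against controls, 0 of 258 members passed in Fischer, Long Evans and Sprague Dawley rats (limma, 16, 17 and 13 at an unadjusted p under 0.05), and 0%, 0.195% and 0.0137% of all probe sets did. At the unadjusted threshold these are 6.2%, 6.59% and 5.04% of the members, against 5.25%, 7.62% and 4.18% of all probe sets. The largest member difference in size was 0.15, 0.23 and 0.25. Rpl38 gave -0.10 to -0.09 in Long Evans rats over its probe sets (adjusted p 0.31 to 0.35). In simulated data with known changes, 73.1%, 55.2% and 68.7% of probe sets changed by 0.25 passed in this contrast in Fischer, Long Evans and Sprague Dawley rats, and 98.5%, 95.5% and 95.5% of those changed by 0.5. The simulation drew independent noise for each probe set and changed probe sets picked at random from the whole array. It therefore does not give the power for the members.

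By period and dose, 0 members passed in each of the 4 contrasts against the shared controls in each strain. In Fischer rats the numbers at an unadjusted p under 0.05 (limma) were 3 for perinatal 250 ppm, 45 for perinatal 750 ppm, 4 for postnatal 250 ppm and 17 for postnatal 750 ppm. These are 1.16%, 17.4%, 1.55% and 6.59% of the members, against 5.23%, 8.03%, 3.66% and 7.21% of all probe sets at the same unadjusted threshold, and 0%, 0%, 0% and 0.0137% of all probe sets passed with adjustment. For perinatal 750 ppm the median difference was -0.06 over the members and -0.01 over all. Rplp2 differed by 0.02 there. In Long Evans rats the 4 numbers were 5, 10, 15 and 25 (1.94%, 3.88%, 5.81% and 9.69% of the members, against 8.81%, 6.39%, 6.95% and 8.41% of all probe sets), and 0.284%, 0.0993%, 0.14% and 0.113% of all probe sets passed with adjustment. In Sprague Dawley rats they were 3, 12, 12 and 16 (1.16%, 4.65%, 4.65% and 6.2%, against 4.53%, 4.19%, 3.63% and 5.26% of all), and 0.0685%, 0.00685%, 0.0103% and 0.0103% of all passed with adjustment.

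**Figure D5:**
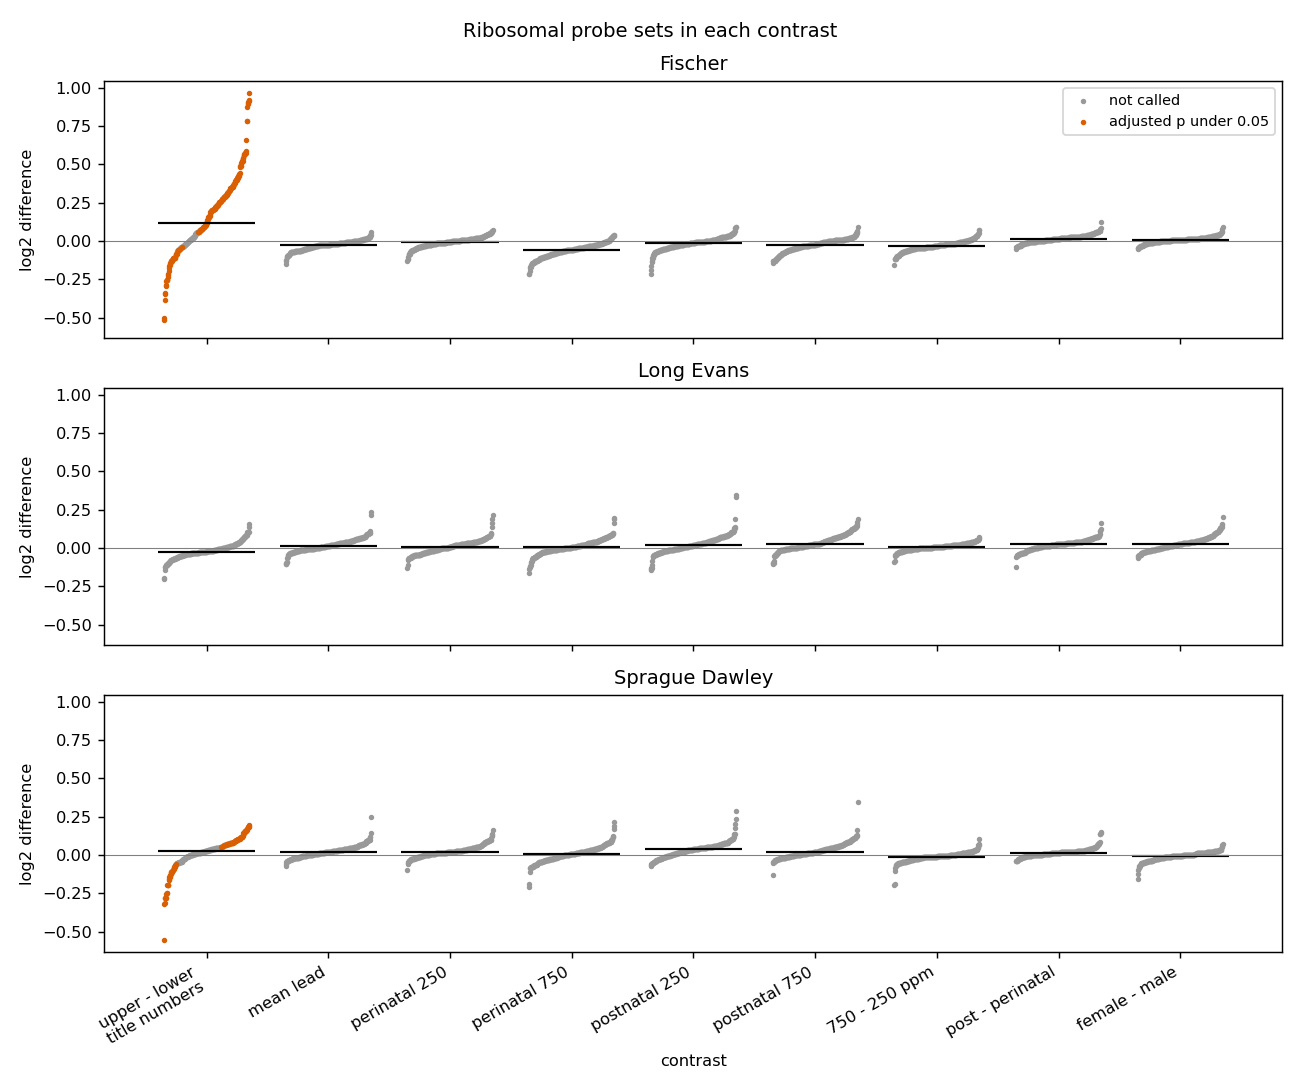
Difference (log2) of each of the 258 member probe sets in 9 contrasts, 1 panel per strain, sorted within each contrast, with a black line at the median. Coloured points have an adjusted p under 0.05: they occur in the title-number contrast in Fischer (194) and Sprague Dawley (103) rats, and in none of the lead, dose, period or sex contrasts.

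Dose and period gave 0 members too. For 750 against 250 ppm, the numbers at an unadjusted p under 0.05 (limma) were 33, 0 and 5 in Fischer, Long Evans and Sprague Dawley rats (12.8%, 0% and 1.94% of the members, against 10.8%, 7.06% and 4% of all probe sets), and 0.222%, 0.0479% and 0.00342% of all probe sets passed with adjustment. For postnatal against perinatal exposure they were 5, 15 and 10 (1.94%, 5.81% and 3.88%, against 8.14%, 12.3% and 4.94% of all), and 0.0274%, 0.065% and 0.0445% of all passed with adjustment. The difference between strains in the mean lead effect passed for 0 members (limma, 23 at an unadjusted p under 0.05 for Long Evans against Fischer, 23 for Sprague Dawley against Fischer and 8 for Sprague Dawley against Long Evans), and 0.288%, 0.0171% and 0.144% of all probe sets did. At the unadjusted threshold these are 8.91%, 8.91% and 3.1% of the members, against 6.75%, 5.17% and 5.08% of all probe sets.

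No member passed the test of females against males, the X-linked Rps4x and Rpl36a included. The labels were used as deposited, with the 8 Long Evans and Sprague Dawley arrays that went against their sex label kept in. This limits the contrast in those strains. There were 0 in each strain (limma, 3, 50 and 10 at an unadjusted p under 0.05 in Fischer, Long Evans and Sprague Dawley rats), and 0.202%, 0.178% and 0.0205% of all probe sets passed. At the unadjusted threshold these are 1.16%, 19.4% and 3.88% of the members, against 10.8%, 16.8% and 10.7% of all probe sets. In Long Evans rats the smallest adjusted p was 0.072.

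Genes that work with the ribosome were read from lists of related and contrasting genes, counting symbols in the title-number contrast, in which 18.6% of all probe sets rose and 42.3% fell in Fischer rats. In Fischer rats 19 of 27 other translation genes rose with upper numbers and 4 fell (median 0.13). Eif5a, which helps the ribosome past stalling sequences, rose by 0.44, Fau, whose product is cut to the small-subunit protein Rps30, by 0.41, and the helicase gene Eif4a2 by 0.24. Of the ribosome assembly genes 17 of 38 rose and 12 fell (median 0.04), with Eif6, which keeps the subunits apart, 0.24 higher. Of the genes of growth signalling to the ribosome 5 of 18 rose and 6 fell (median 0.01), with Rps6kb1, the kinase of Rps6, 0.34 higher, Eif4e 0.27 higher and Rheb 0.18 higher. Of the genes of mitochondrial ribosomal proteins 17 of 72 rose and 31 fell (median -0.05). Of the oxidative phosphorylation subunits 34 of 85 rose and 29 fell, and of the proteasome subunits 17 of 41 rose and 14 fell.

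In Sprague Dawley rats, where 10.2% of all probe sets rose and 8.71% fell, 8 of 27 other translation genes rose and 3 fell, 8 of 38 ribosome assembly genes rose and 2 fell, and 3 of 18 growth signalling genes rose and 4 fell. Mitochondrial ribosomal proteins rose in 34 of 72 and fell in 1 (median 0.08), oxidative phosphorylation subunits rose in 37 of 85 and fell in 5, and proteasome subunits rose in 16 of 41 and fell in 2. In Long Evans rats 0 genes of all 18 lists passed.

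Markers of cell types were counted in the same contrast in Fischer rats, again against 18.6% of all probe sets that rose and 42.3% that fell. Of 9 astrocyte genes 8 rose and none fell (median 0.22), with Gfap, the astrocyte filament gene, 0.52 higher, Aldoc 0.29 higher and Slc1a3 0.23 higher. Their mean level ran from 11.33 to 11.42 with lower and from 11.49 to 11.63 with upper numbers, without overlap. Of 12 genes of meninges and fibroblasts 11 fell (median -0.34), with mean levels of 8.10 to 9.18 and 7.88 to 8.71. Principal neuron genes rose in 9 of 17 and fell in 3, interneuron genes rose in 3 of 11 and fell in 7, and oligodendrocyte genes rose in 7 of 15 and fell in 3. Microglia genes rose in 3 of 11 and fell in 6, blood vessel genes rose in 2 of 13 and fell in 8, and red blood cell genes rose in 1 of 8 and fell in 1. None of 14 choroid plexus genes passed. Of genes of neighbouring regions, 3 of 5 thalamus, 4 of 8 striatum and 2 of 2 neocortex genes fell. The part of these markers in the ribosomal protein differences was not tested.

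In Sprague Dawley rats 5 of 9 astrocyte genes fell with upper numbers and none rose, with Gfap at -0.21 and Slc1a3 at -0.14. Principal neuron genes fell in 3 of 17, and oligodendrocyte genes fell in 4 of 15 and rose in 1. Interneuron genes rose in 2 of 11 and fell in 1, microglia genes rose in 1 and fell in 1 of 11, and blood vessel genes rose in 2 of 13. Of the lists of meninges and fibroblasts, thalamus and striatum 1 gene each rose, and none passed of the choroid plexus, red blood cell and neocortex lists. The part of these markers was not tested here either.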

How the data were processed

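RNA from the hippocampus of the rats was hybridised to 1-colour Affymetrix arrays after biotin labelling, per the labels' protocols. The deposited values are log2 expression levels, made with RMA in Partek per the submitters' processing notes, whose version is not given in the sources used here. They were used as deposited, for 29214 probe sets. Symbols came from the platform's probe annotation: 15310 probe sets had 1 symbol, 323 several and 13581 none. Of the 71 symbols, 70 matched a RefSeq gene (GRCr8) by gene ID with the same symbol. Promoters are RefSeq's (GRCr8) too and were found for 60 symbols. They were sought by gene ID and symbol, or by symbol alone where that gave none.

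Per strain, limma 3.58.1 (R 4.3.3) fitted the 10 groups of sex and treatment plus title number (lower or upper within the group), with a moderated test and Benjamini-Hochberg adjustment over all probe sets. Strain contrasts and differences between strains came from 1 fit of all arrays with 30 groups and a title-number term per strain. The 3 male Sprague Dawley controls were parted into 1 lower and 2 upper. The script was tested on simulated data. The members, lists and tests were chosen with earlier results of these data known.

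Named members are Rplp2 and Rpl38, the 5 highest and 5 lowest per strain by title number, the 4 highest and 4 lowest that passed in each strain contrast, the 3 highest and 3 lowest that passed in other contrasts and in the differences between strains, and Rpl22l1, Rps4x and Rps4y2 whatever their result. Of the other lists, up to 3 genes that passed with the smallest p-values are named. Genes named beyond this rule (Rpl21, Rpl29, Rpl39, Rpl9, Rpl35a, Rps15a, Rps7, Rps9, Rplp1, Rps12 and Rpl36 in Fischer rats, Rplp2 and Rpl38 in subsets of animals) illustrate the counts and were chosen after their values were seen.

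Alternatives changed the scaling, a filter on low values, array weights, the samples in the fit, the sexes pooled, the title-number term, a choroid plexus covariate, the parting of the male Sprague Dawley controls, the arrays that went against their sex label, and left out animals in turn. The number of animals limits the precision.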

Additional observations from a re-analysis of the deposited data

Results flagged for a closer look

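The level of Rplp2, of Rpl38 and of the mean over all members was examined in each set of 4 animals of 1 strain, treatment and set of title numbers. In 5 of the 87 such examinations, 1 animal stood apart from the other 3 by Dixon's 95% criterion, where chance gives about 1 in 20. Rpl38 was 10.92 in a female Long Evans rat of the postnatal 250 ppm group with an upper number, against 10.72 to 10.75 in the others. It was 10.87 in a female Sprague Dawley rat of the postnatal 750 ppm group with an upper number, against 10.92 to 10.93. Rplp2 was 11.61 in a male Sprague Dawley rat of the perinatal 750 ppm group with a lower number, against 11.73 to 11.75. The mean over all members was 10.60 in a female Fischer rat of the postnatal 750 ppm group with a lower number, against 10.72 to 10.73. It was 10.81 in a male Long Evans rat of the postnatal 750 ppm group with a lower number, against 10.73 to 10.75.

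The difference between upper and lower title numbers itself differed between strains, tested with limma over all probe sets. It did so for 161 members between Long Evans and Fischer rats (against 43.3% of all probe sets). The number was 184 between Sprague Dawley and Fischer rats (against 55.3%) and 76 between Sprague Dawley and Long Evans rats (against 10.5%). At the probe set with the smallest adjusted p, the gap for Rplp2 was -0.92, -0.74 and 0.18 in these comparisons, and that for Rpl38 was -0.92, -0.87 and 0.10.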

How the results depend on the processing

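No paired analysis was possible because the titles give no replicate number that is shared between groups. Of 2325 alternative values of 66 named differences, 2266 kept their direction and side of the threshold, 54 no longer passed and 5 reversed. All 5 reversals came from using animals with lower title numbers only: Rplp2 between Long Evans and Fischer rats was 0.1111 and 0.111 there, Rpl38 between Long Evans and Fischer rats was 0.1526 and Rpl38 between Sprague Dawley and Fischer rats was 0.0544 and 0.0633. Counts of members that passed moved as follows. The title-number count in Long Evans rats, 0, was 2 with quantile normalization (against 0.127% of all probe sets) and 3 with the filter on low values (against 0.359% of those kept). It was 2 with array weights (against 0.311% of all) and 8 with 1 fit of all arrays (against 0.531%). In Sprague Dawley rats it was 33 in males only (against 6.15% of all probe sets) and 32 in females only (against 4.33%). With 1 fit, Long Evans rats gave 1 member for the mean lead effect, 5 over the lead contrasts and 2 for sex, and Sprague Dawley rats 1 and 1 for the first 2. With array weights, Long Evans rats gave 16 for sex, Sprague Dawley rats 1 for the mean lead effect and 1 over the lead contrasts, and their difference in the lead effect 1. The choroid plexus covariate gave 1 for sex in Long Evans rats. No share over all probe sets is given beside these lead and sex counts, so they do not set the members apart from other genes. In controls, Long Evans against Fischer rats gave 71 without the title-number term (27.5%, against 25.1% of all probe sets) and 24 with lower numbers only (9.3%, against 12.5%). Sprague Dawley against Fischer rats gave 33 without the term (12.8%, against 10.5%). Sprague Dawley against Long Evans rats gave 80 and 78 within lower and upper numbers (against 20% and 14.6% of all). Without the 8 arrays against their sex label, the 3 strain counts were 121, 61 and 114. Of all probe sets, 25.9%, 13.9% and 22.6% passed there, against 32.1%, 16% and 31.2% with these arrays. The causes were not tested.

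Leaving out animals in turn gave 187 to 197 members by title number in Fischer, 0 to 4 in Long Evans (highest without a male of perinatal 750 ppm) and 91 to 112 in Sprague Dawley rats. Sex in Long Evans rats gave 0 to 5 (highest without a male of perinatal 250 or of perinatal 750 ppm). The mean lead effect and the lead contrasts in Sprague Dawley rats gave 0 to 1 each (1 without a female control). The strain counts ran over 125 to 140, 43 to 66 and 120 to 136, and the share of members whose title-number difference differed between strains over 56.6% to 64.0%, 62.4% to 71.7% and 5.43% to 46.1%. The share over all probe sets was not recorded for the fits that left out animals. The counts for the other lead, dose, period and sex contrasts and for the differences in the lead effect stayed at 0.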

Other observations

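After Rpl36a, the members with the widest spread between animals of 1 group and set of title numbers, chosen after their values were seen, included Rpl41, the smallest ribosomal protein, with a standard deviation of 0.40 in Long Evans, 0.22 in Fischer and 0.19 in Sprague Dawley rats. Rps27 had 0.27 in Fischer, 0.22 in Long Evans and 0.19 in Sprague Dawley rats, and Rpl22l1 had 0.20, 0.23 and 0.21 in Fischer, Long Evans and Sprague Dawley rats. The only Rps27 probe set, with a mean level of 5.87, and 1 of those of Rpl41, at 6.62, are among the 3 members not above the 40th percentile. With group and title numbers taken out, the median correlation across animals between 2 member symbols, over 2485 pairs, was 0.17 in Fischer, 0.098 in Long Evans and 0.26 in Sprague Dawley rats. These correlations share the arrays and their scaling.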
